A study of Homo sapiens with 8 samples.

Results

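Long intergenic RNAs are transcripts that lie between protein-coding genes and have no long reading frame, and the gene nomenclature gives most of them a LINC name with a number. On the whole-transcriptome array used here, 843 gene names begin with LINC, carried by 1673 probes. The RNAs described below are the 223 names (26.5% of the LINC names) with a probe well above background on all 8 arrays of the series. Where such a name had several probes of this kind, the one with the highest mean log2 processed signal stands for it. The members were thus chosen by their measured signal and its detection, so the detection and the signal of these 223 RNAs are a description. The choice did not use the differences between the groups, but a LINC name that fell below detection on any array is not among them.

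The labels name the cells SAS, a line of human tongue squamous cell carcinoma; the methods name them SAS/GFP, the control line of a pair of which the other expresses the standard form of CD44. Cells were transfected with 25 nM of a synthetic mimic of miR-629-3p, of miR-210-3p or of miR-874-3p, or with a negative control (NC), with 2 arrays for each of the 4 groups. All groups, NC included, carried a transfected small RNA and, if the methods' name holds, GFP; the mimics and NC came from different suppliers. The labels give RNA extraction at 48 h, and the methods a shorter time; the labels do not say whether the 2 samples of a group were separate cultures, so the p-values measure only the spread between these samples, which may be technical. The 8 arrays lay on 1 slide, with miR-629-3p and miR-210-3p in its first row and miR-874-3p and NC in its second. Slide row and mimic therefore cannot be told apart in miR-629-3p or miR-210-3p against NC, while miR-874-3p against NC lies within a row.

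Long intergenic RNAs are transcribed by RNA polymerase II and are mostly capped, spliced and polyadenylated like messenger RNAs. Many stay in the nucleus, where part of them is degraded by the RNA exosome, and others act in the cytoplasm, where they can bind proteins or microRNAs. Some were later found to encode small proteins and were renamed. A microRNA guides an Argonaute protein to RNAs that pair with its seed, bases 2 to 8, which lowers the level of messenger RNAs with such a site and can also lower noncoding ones.

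The 3 mimics carry different seeds. Their mature sequences, as RefSeq gives them on GRCh38.p14, are shown 5′ to 3′ with the seed in capitals, since any direct effect on a long intergenic RNA would run through it.
hsa-miR-629-3p (chr15:70079387-70079408, minus strand): gUUCUCCCaacguaagcccagc
hsa-miR-210-3p (chr11:568112-568133, minus strand): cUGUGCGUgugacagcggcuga
hsa-miR-874-3p (chr5:137647582-137647603, minus strand): cUGCCCUGgcccgagggaccga

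What an array measures of an RNA is the binding to a 60-base probe, printed here in the sense of the transcript with its position on hg19 in the array's annotation. These 10 are shown because the differences or the highest signals below rest on them.
LINC00882 (chr3:106828781-106828840): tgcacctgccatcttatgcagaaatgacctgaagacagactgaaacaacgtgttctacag
LINC01204 (chrX:45386425-45386484): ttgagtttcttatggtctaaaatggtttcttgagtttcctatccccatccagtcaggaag
LINC00704 (chr10:4693325-4693384): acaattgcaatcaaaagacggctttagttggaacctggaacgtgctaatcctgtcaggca
LINC00702 (chr10:4285145-4285204): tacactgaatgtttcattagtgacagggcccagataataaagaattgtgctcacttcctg
LINC00316 (chr21:46758505-46758564): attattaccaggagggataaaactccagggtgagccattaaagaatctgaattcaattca
LINC-PINT (chr7:130628933-130628992): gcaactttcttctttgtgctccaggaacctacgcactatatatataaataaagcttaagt
LINC01160 (chr1:112141629-112141688): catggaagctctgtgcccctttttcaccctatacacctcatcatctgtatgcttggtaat
LINC01352 (chr1:221005670-221005729): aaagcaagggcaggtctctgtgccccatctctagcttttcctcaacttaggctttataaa
LINC01356 (chr1:113392302-113392361): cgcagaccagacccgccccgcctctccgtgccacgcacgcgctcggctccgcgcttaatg
LINC00152 (chr2:87820743-87820802): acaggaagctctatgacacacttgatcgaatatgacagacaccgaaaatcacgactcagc

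None of these 10 probes held the 7 letters that pair with a mimic's seed, although a probe is only a short window of its RNA. Among the 223 probes, GGGAGAA, the letters opposite the seed of miR-629-3p, occurred in 1 (LINC00888), a share of 0.448% beside 0.747% of all 58201 probes. ACGCACA, opposite the seed of miR-210-3p, occurred in 1 (LINC00327) beside 0.131% of all probes, and CAGGGCA, opposite that of miR-874-3p, in 1 (LINC00454) beside 0.387%. On the other strand the same letters occurred in 6, 0 and 3 of the 223 probes (2.69%, 0% and 1.35%), beside 0.588%, 0.143% and 0.555% of all probes. With its own mimic, LINC00888 differed from NC by 0.60 on the log2 scale (adjusted p = 0.053), LINC00327 by -0.49 (adjusted p = 0.537) and LINC00454 by 0.08 (adjusted p = 0.886), so none of these differences passed the test. Here and throughout, limma gave the p-values, which were adjusted by Benjamini-Hochberg over all 21283 genes in the fit.

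Most LINC names were detected either nowhere or everywhere. No probe was well above background on any array for 331 names, 153 names reached 1 array, and 47, 18, 20, 21, 15 and 15 names reached 2, 3, 4, 5, 6 and 7 arrays, before the 223 on all 8. Over all 43317 gene names of the array, 17586 (40.6%) were well above background on all 8. The median GC content was 45% in the probes of the 223 RNAs, 45% in those of all tested genes detected on all 8 arrays and 40% in the probes of the 331 names found nowhere.

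**Figure D1:**
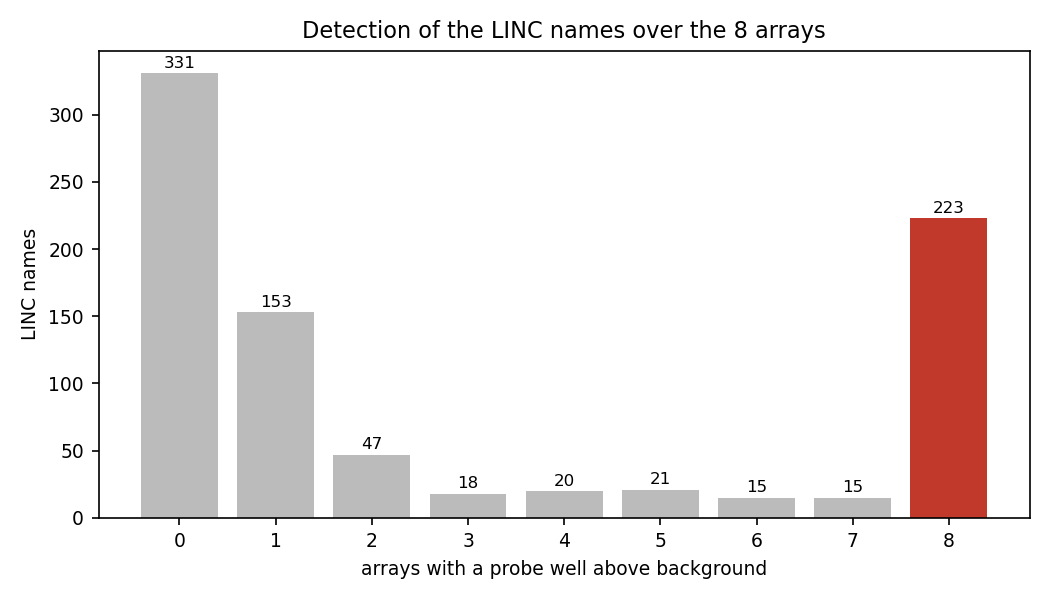
Number of LINC names (vertical axis) by the number of the 8 arrays, from 0 to 8, on which the best probe of the name was well above background. The 223 names described here are the red bar at 8 arrays, and 331 names were on no array.

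RefSeq held 221 of the 223 names, 178 as the current symbol and 43 as an older one; LINC00086 and LINC00087, whose probes overlap in sequence, were not matched. Of the matched names, 206 belong to genes classed as long noncoding, 12 to protein-coding genes and 3 to transcribed pseudogenes. LINC01291 and LINC01293 match the same gene, LINC01291. The renamed RNAs include LINC00704, now MANCR, an RNA associated with mitosis; LINC00152, now CYTOR, a regulator of the cytoskeleton; LINC00657, now NORAD, an RNA induced by DNA damage that binds PUMILIO proteins; and LINC00162, now PICSAR, first described in cutaneous squamous cell carcinoma. The probes of 222 members have a position, on 23 chromosomes. The probes of LINC00115 and LINC01000 lie on another chromosome than the RefSeq gene of that name, so these names are uncertain.

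Levels are given as log2 of the processed signal minus the array's 75th percentile, so that 0 is the 75th percentile of the gene probes. The mean over the 8 arrays ranged from -2.57 to 8.74 among the 219 RNAs that could be tested, with a median of -0.42, beside 1.43 for the 17401 tested genes well above background on all 8 arrays. These are signals of different probes, not amounts of transcript. The 10 RNAs with the highest signal were LINC01356, LINC00493, LINC00152, LINC01001, LINC00504, LINC01088, LINC00869, LINC00958, LINC01420 and LINC00162, with means from 8.74 down to 4.55. LINC01356 read 8.79 and 8.81 in miR-629-3p cells, 8.73 and 8.71 in miR-210-3p cells, 8.68 and 8.72 in miR-874-3p cells and 8.64 and 8.83 in NC. Its 2 NC arrays enclosed the other 6, while the miR-629-3p pair lay above those of both other mimics. At the lower end, LINC01545, LINC00630 and LINC01569 averaged -2.25, -2.30 and -2.57. Just outside, LINC00944, LINC00491 and LINC00634 averaged between -2.02 and -1.91 and were left out because 1 array of each, miR-874-3p replicate 2, NC replicate 2 and NC replicate 1, was not well above background.

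Most of the 223 RNAs were not called against NC. In such bulk RNA, fewer cells of a kind and less RNA per cell cannot be told apart. Across the 219 tested, the median difference from NC was 0.07 (log2) for miR-629-3p, 0.03 for miR-210-3p and 0.02 for miR-874-3p, against 0.00, 0.04 and -0.02 for all genes detected on all 8 arrays. In all 3 comparisons 69 RNAs lay within 0.2 (log2) of NC, and 180 were called in none of them at an adjusted p under 0.05. The same counts were not made for all genes, whose shares called in each comparison are given below. LINC00174, LINC00322, LINC00989 and LINC01089 were not tested, since each lacked a value on 1 array where its spot was an outlier. LINC00657 (NORAD), named here after its values were seen, varied little, with 1.78 and 1.86 in miR-629-3p cells, 1.93 and 1.87 in miR-210-3p cells, 1.75 and 1.84 in miR-874-3p cells, and 1.71 and 1.70 in NC.

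Between miR-629-3p and NC, 34 of the 219 RNAs differed, 25 of them higher with the mimic and 9 lower. That is 15.5% of them, beside 16.8% of all genes tested. By direction, 11.4% were higher and 4.11% lower, and among all genes detected on all 8 arrays 9.09% were higher and 8.56% lower. By the rule of the study, a change of at least 2-fold with an unadjusted p under 0.05, 10 RNAs (4.57%) were called beside 3.05% of the genes detected on all 8 arrays. When an array was left out, 3 RNAs were called without replicate 1 of miR-629-3p, 6 without its replicate 2, 17 without either replicate of miR-210-3p or without replicate 1 of NC, 9 without replicate 2 of NC, and 48 without either replicate of miR-874-3p. The methods' t-test with Benjamini-Hochberg adjustment called 0, with 2 arrays on each side.

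LINC00882, which lies on chromosome 3 between CBLB and CCDC54, showed the largest rise of the 34. It read 2.58 and 2.38 in miR-629-3p cells, 0.69 and 0.74 in miR-210-3p cells, -0.09 and 0.61 in miR-874-3p cells, and 0.11 and -0.85 in NC. Both miR-629-3p arrays stood above all 6 others, while the NC arrays lay far apart. The rise against NC was 7.20-fold, or 2.85 ± 0.36 (SE) on the log2 scale (adjusted p = 0.0102). Against miR-210-3p, on the same slide row, it was 3.40-fold (adjusted p = 0.0241). Its other probes gave 2.52 and 2.84 on the log2 scale, with adjusted p-values of 0.0104 and 0.0098 among all probes kept. The call was kept in 6 of the 8 fits that each left out 1 array.

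LINC01204, on the X chromosome, was the only RNA of the set that differed from NC with miR-629-3p and with miR-874-3p. It read 2.39 and 2.43 in miR-629-3p cells, 0.67 and 0.66 in miR-210-3p cells, 1.49 and 1.35 in miR-874-3p cells, and 0.34 and 0.19 in NC, so that no groups overlapped. The rise was 4.42-fold with miR-629-3p (2.14 ± 0.09 on the log2 scale, adjusted p = 0.0008). With miR-874-3p it was 2.23-fold (1.16 ± 0.09, adjusted p = 0.0143), and with miR-210-3p 1.32-fold (0.40 ± 0.09, adjusted p = 0.0563). With 1 array left out, the call with miR-629-3p was kept in 8 of 8 fits.

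LINC00704 (MANCR) rose under miR-629-3p as well as under miR-210-3p. It read 3.27 and 3.28 in miR-629-3p cells, 2.77 and 2.68 in miR-210-3p cells, 1.60 and 1.22 in miR-874-3p cells, and 1.39 and 1.49 in NC. The arrays of the first slide row all lay above those of the second, and miR-874-3p enclosed NC. It was 3.57-fold higher with miR-629-3p (1.84 ± 0.13, adjusted p = 0.0034) and 2.44-fold higher with miR-210-3p (1.29 ± 0.13, adjusted p = 0.0123). Between these mimics, on the same row, it was 1.46-fold higher with miR-629-3p (adjusted p = 0.0384). Its other probes rose by 1.56 and 1.77 on the log2 scale with miR-629-3p and by 1.25 and 1.14 with miR-210-3p, of which the last did not pass the test (adjusted p = 0.131). With 1 array left out, the call was kept in 8 of 8 fits for miR-629-3p and in 5 of 8 for miR-210-3p.

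LINC-PINT, a transcript induced by p53, rose with miR-629-3p. It read 2.60 and 2.41 in miR-629-3p cells, 1.40 and 1.36 in miR-210-3p cells, 1.20 and 1.72 in miR-874-3p cells, and 1.30 and 1.05 in NC. Only the miR-629-3p arrays stood clear of the others. The rise was 2.51-fold (1.33 ± 0.19, adjusted p = 0.0128), and 2.18-fold against miR-210-3p (adjusted p = 0.0142). All 5 other probes of the gene rose as well, by 0.48 to 1.86 on the log2 scale (adjusted p from 0.0131 to 0.0439). The call was kept in 5 of 8 fits with 1 array left out.

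LINC00316 and LINC01151 rose with miR-629-3p and were not called against NC with the other mimics. LINC00316 read 1.66 and 1.69 in miR-629-3p cells, -0.27 and -0.15 in miR-210-3p cells, -0.30 and 0.06 in miR-874-3p cells, and 0.29 and 0.21 in NC, a 2.69-fold rise (1.43 ± 0.13, adjusted p = 0.0055). LINC01151 read 0.83 and 0.85 in miR-629-3p cells, -1.87 and -1.99 in miR-210-3p cells, -1.40 and -0.40 in miR-874-3p cells, and -1.10 and -1.46 in NC, a 4.33-fold rise (2.11 ± 0.32, adjusted p = 0.0147). Against miR-210-3p the rises were 3.70-fold (adjusted p = 0.0023) and 6.81-fold (adjusted p = 0.0063). LINC01444 and LINC00472 were 2.14-fold and 1.97-fold higher than NC (adjusted p = 0.0147 and 0.0095), and all 4 other probes of LINC00472 rose by 0.74 to 1.24 on the log2 scale. With 1 array left out, the call was kept in 8 of 8 fits for LINC00316, 5 for LINC01151, 4 for LINC01444 and 7 for LINC00472. The other 17 RNAs that rose did so by 0.28 to 0.92 on the log2 scale.

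The 9 falls with miR-629-3p ranged from 0.38 to 1.08 on the log2 scale, and few were kept when 1 array was left out: LINC01160, LINC01352, LINC00460, LINC01293 and LINC00341 in 2 of 8 fits, LINC00923 in 3, LINC00482 in 4 and LINC00618 in 5. LINC01160 read 2.57 and 2.42 in miR-629-3p cells, 2.35 and 2.37 in miR-210-3p cells, 3.52 and 4.36 in miR-874-3p cells, and 3.57 and 3.60 in NC. LINC01352 followed it on every array, with 1.40 and 1.23, 1.22 and 1.25, 2.27 and 3.06, and 2.34 and 2.42 in the same order. Both were lower on all 4 arrays of the first slide row than on any of the second. Their probes lie far apart on chromosome 1 and share a run of at most 11 letters, yet the first exceeded the second by 1.12 to 1.30 (log2) on all 8 arrays. With miR-629-3p, LINC01160 was 2.12-fold lower than NC (-1.08 ± 0.26, adjusted p = 0.0441) and LINC01352 2.09-fold lower (-1.06 ± 0.25, adjusted p = 0.0414). With miR-210-3p the values were 2.33-fold and 2.21-fold lower, and neither passed the test (adjusted p = 0.0553 and 0.0575).

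Among the other falls, LINC00460, an RNA studied in head and neck carcinoma, read -0.76 and -0.65 in miR-629-3p cells, 0.57 and 0.36 in miR-210-3p cells, 0.82 and 0.37 in miR-874-3p cells, and -0.04 and -0.06 in NC. The miR-629-3p arrays were the lowest, 1.57-fold below NC (adjusted p = 0.0484) and 2.25-fold below miR-210-3p (adjusted p = 0.0090), although its other probes differed from NC by 0.25 and -0.54 on the log2 scale and did not pass the test. LINC00341, whose RefSeq name is SYNE3, which encodes a protein of the outer nuclear membrane, read 2.31 and 2.36 with miR-629-3p against 2.72 and 2.74 in NC, a 1.32-fold fall (adjusted p = 0.0260). It was lower still in miR-874-3p cells, at 2.08 and 2.24, 1.49-fold below NC without passing the test (adjusted p = 0.0605). LINC00618, LINC01293, LINC00923 and LINC00482 fell by 0.58, 0.55, 0.50 and 0.40 on the log2 scale. RefSeq gives LINC01293 as an older name of LINC01291, which is also a member. The brighter LINC01291 probe differed from NC by -0.14 and was not called, and the dimmer one by -0.69 (adjusted p = 0.0420). The other probe of LINC00482, of about the same signal, differed from NC by -0.13 (adjusted p = 0.915). LINC01116 completed the 9 with a fall of 0.38, and its 4 other probes differed from NC by only -0.14 to -0.02 without passing the test. The lowest difference with miR-629-3p among the 219 RNAs, -1.12, was not called.

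**Figure D2:**
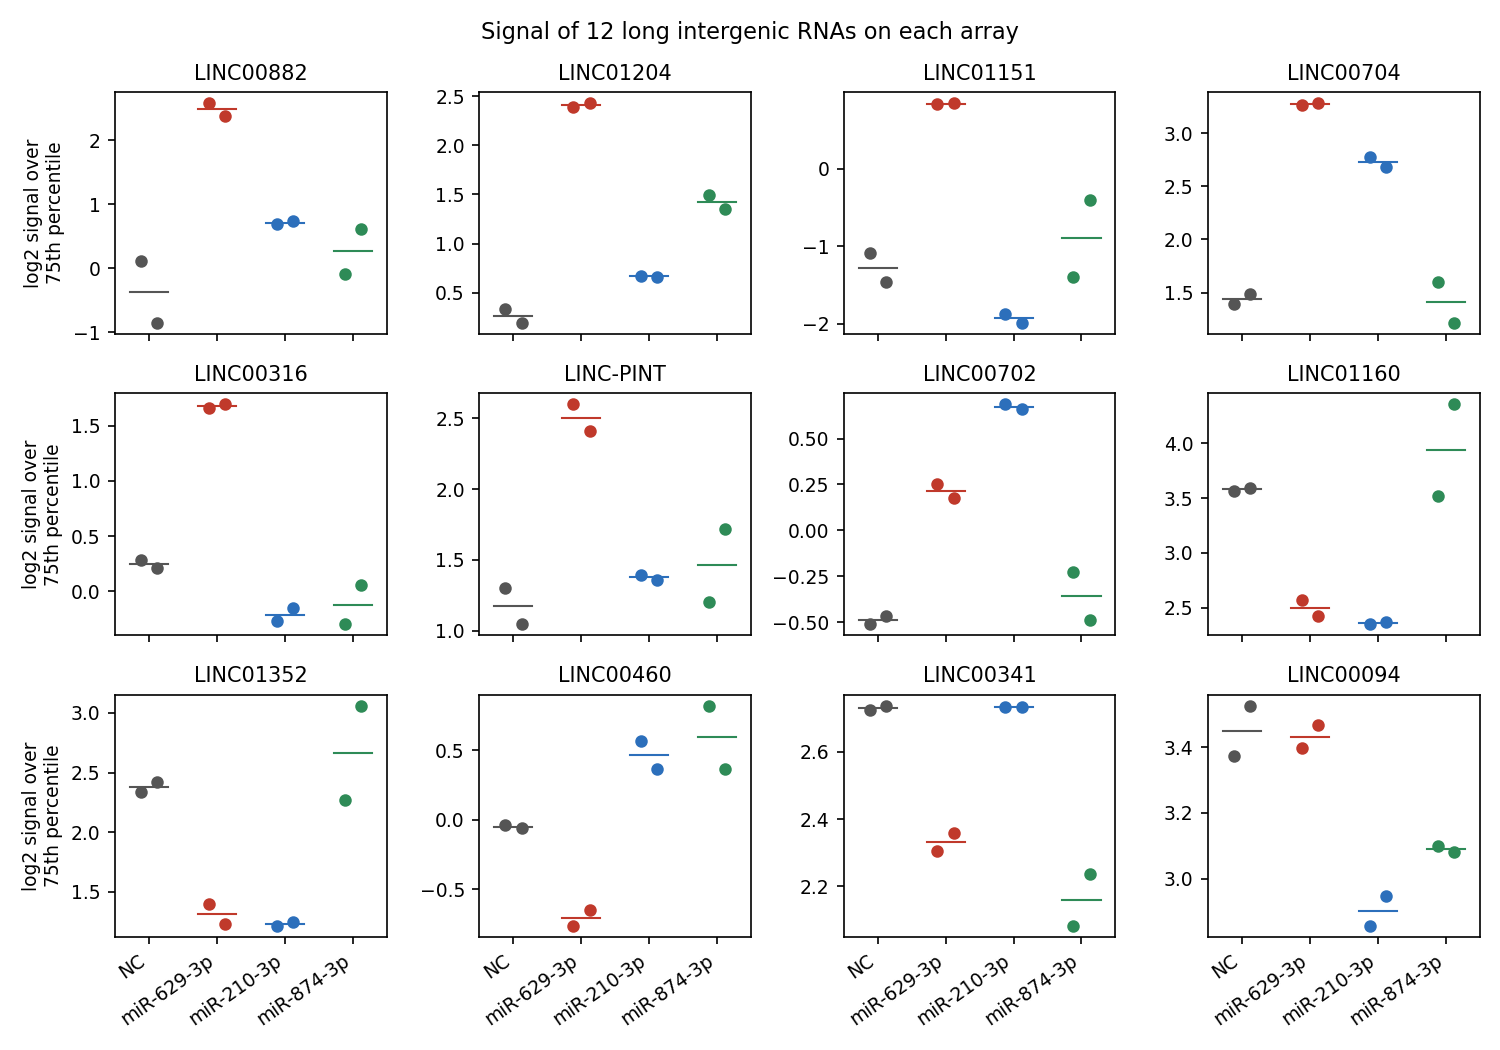
Level of 12 long intergenic RNAs on each array, as log2 signal minus the array's 75th percentile (vertical axis, scaled per panel), by group; points are the 2 arrays of a group and bars their mean. LINC00882, LINC01204, LINC01151, LINC00316 and LINC-PINT were highest with miR-629-3p, LINC00704 and LINC00702 stood above NC with miR-629-3p and miR-210-3p, and LINC01160 and LINC01352 showed one and the same pattern.

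With miR-210-3p, 10 of the 219 RNAs (4.57%) differed from NC, beside 6.05% of all genes tested. Of these, 7 (3.2%) were higher and 3 (1.37%) lower, and among the genes detected on all 8 arrays 3.84% were higher and 2.41% lower. By the 2-fold rule 7 RNAs (3.2%) were called, beside 1.42% of those genes. When an array was left out, the count was 0 without either replicate of miR-210-3p, 1 without NC replicate 1, 4 without NC replicate 2, 3 without either replicate of miR-629-3p and 22 without either replicate of miR-874-3p. The methods' t-test with Benjamini-Hochberg adjustment called 0. In limma 50 RNAs (22.8%) had an unadjusted p under 0.05, a cut at which the share of all genes was not taken.

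LINC00702 and LINC00704, neighbours on the short arm of chromosome 10 between KLF6 and AKR1E2, had the largest rises among the 10. The highest difference with miR-210-3p among the 219 RNAs, 1.42, was not called. LINC00702 read 0.69 and 0.66 in miR-210-3p cells, 0.25 and 0.18 in miR-629-3p cells, -0.22 and -0.49 in miR-874-3p cells, and -0.51 and -0.47 in NC. The groups of the first slide row stood apart from each other and above the second. LINC00702 was 2.23-fold higher than NC with miR-210-3p (1.16 ± 0.10, adjusted p = 0.0096) and 1.63-fold higher with miR-629-3p (adjusted p = 0.0137). Unlike LINC00704, it was lower with miR-629-3p than with miR-210-3p, by 0.46 on the log2 scale (adjusted p = 0.0303). KLF6, the protein-coding gene on one side of the pair, differed from NC by -0.11 with miR-629-3p (adjusted p = 0.521) and by -0.04 with miR-210-3p (adjusted p = 0.864).

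The call of LINC00702 was kept in 6 of 8 fits with 1 array left out, and each call named next in 2 of 8. The other 5 rises with miR-210-3p were those of LINC01003, LINC00592, LINC01588, LINC00339 and LINC00239, by 0.72, 0.68, 0.68, 0.53 and 0.47 on the log2 scale. LINC00339 read 0.77 and 0.71 in miR-210-3p cells, 0.17 and 0.14 in miR-629-3p cells, 0.45 and 0.49 in miR-874-3p cells, and 0.14 and 0.28 in NC. Its miR-210-3p arrays were above all others, also above miR-629-3p on the same row (adjusted p = 0.0076). LINC01213, LINC01118 and LINC00094 fell by 0.79, 0.57 and 0.55. LINC01118 was the single RNA called in opposite directions, near the threshold with miR-629-3p (adjusted p = 0.0498) and with miR-210-3p (adjusted p = 0.0467), where the call was kept in 4 of 12 other settings. It read -1.40 and -1.35 in miR-210-3p cells, -0.36 and -0.35 in miR-629-3p cells, -0.43 and -0.19 in miR-874-3p cells, and -0.70 and -0.90 in NC. The difference between miR-629-3p and miR-210-3p was 1.02 on the log2 scale (adjusted p = 0.0055). LINC00094 (BRD3OS) read 2.86 and 2.95 with miR-210-3p and 3.37 and 3.53 in NC, and its next brightest probe differed from NC by only -0.02.

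With miR-874-3p, LINC01204 alone was called, which is 0.457% of the 219 RNAs beside 0.423% of all genes tested. Among genes detected on all 8 arrays 0.069% were higher and 0.132% lower, and by the 2-fold rule 0.457% of the RNAs and 0.448% of those genes were called. An unadjusted p under 0.05 was reached by 27 RNAs (12.3%), and the share of all genes at this cut was not taken. The call of LINC01204 was lost without either replicate of miR-629-3p or of miR-210-3p, and the count was 3 without miR-874-3p replicate 2 and 2 without NC replicate 2. The difference itself ranged from 0.84 to 1.23 on the log2 scale over the alternatives. The lowest difference with miR-874-3p among the 219 RNAs, -2.07, was not called.

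**Figure D3:**
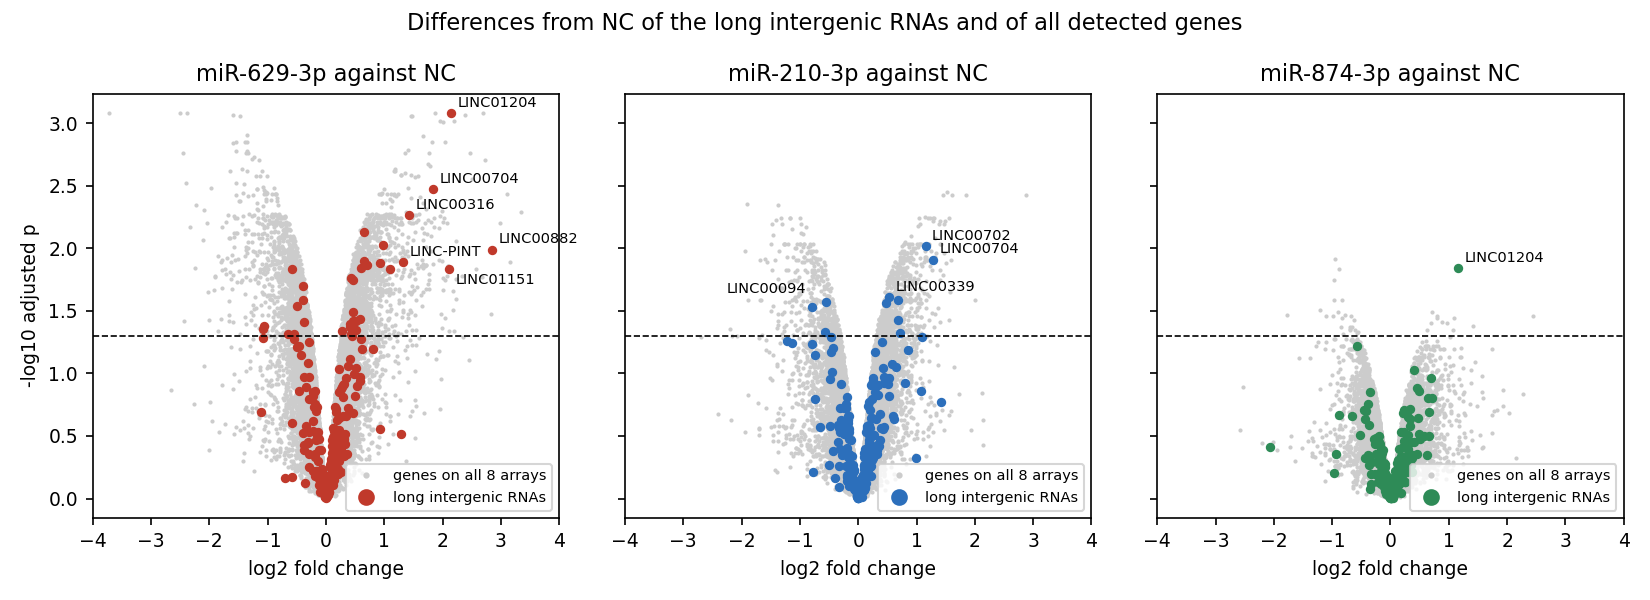
Log2 fold change against NC (horizontal axis) and -log10 of the adjusted p (vertical axis) for each mimic; coloured points are the 219 long intergenic RNAs tested, grey points all genes detected on all 8 arrays within the range drawn, and the dashed line an adjusted p of 0.05. LINC01204 lies highest among the RNAs in the miR-629-3p and miR-874-3p panels, and LINC00702 and LINC00704 in the miR-210-3p panel.

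**Figure D4:**
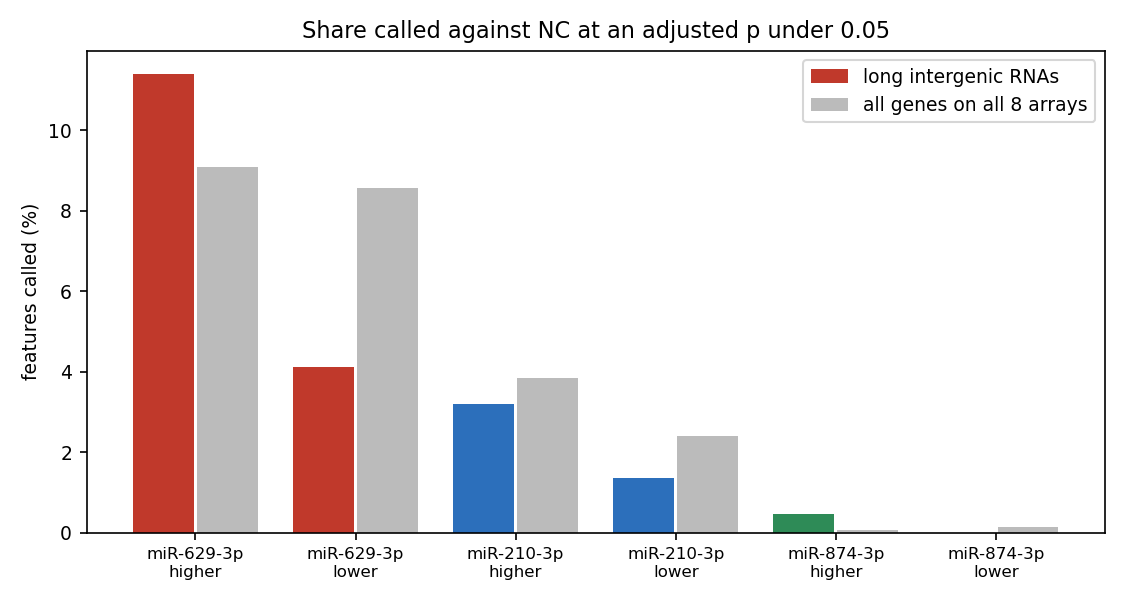
Share in percent of the 219 long intergenic RNAs (coloured bars) and of the 17401 genes detected on all 8 arrays (grey bars) called against NC at an adjusted p under 0.05, by mimic and direction. With miR-629-3p 11.4% of the RNAs were higher and 4.11% lower, beside 9.09% and 8.56% of the genes.

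The comparison of miR-629-3p with miR-210-3p lies within the first slide row. Of the 219 RNAs, 21 (9.59%) were higher and 15 (6.85%) lower with miR-629-3p, beside 10.4% and 14.6% of the genes detected on all 8 arrays. Between the rows, 16 RNAs (7.31%) were higher on all 4 arrays of the first than on all 4 of the second, and 11 (5.02%) lower; for the genes detected on all 8 arrays these shares were 9.06% and 5.15%. The first set holds LINC00704, LINC00702, LINC00882, LINC00152 and LINC01588, and the second LINC01160, LINC01352, LINC01213 and LINC00482. The part of the slide row in these differences was not tested.

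Across the 4 groups, the F test called 48 of the 219 RNAs (21.9%), beside 26.9% of the genes detected on all 8 arrays. The group farthest from the mean of the other 3 was miR-629-3p in 20 RNAs, where it was above in 14 and below in 6. It was miR-210-3p in 16 RNAs, above in 8 and below in 8, and miR-874-3p in 10, above in 5 and below in 5. NC was the farthest group in 2. The shares were 41.7%, 33.3%, 20.8% and 4.17%, and among the genes called by the same test 50.7%, 28.1%, 13.3% and 7.85%. The count was 5 without either replicate of miR-629-3p, 10 and 11 without replicates 1 and 2 of miR-210-3p, and 32 to 56 without any 1 of the other arrays.

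**Figure D5:**
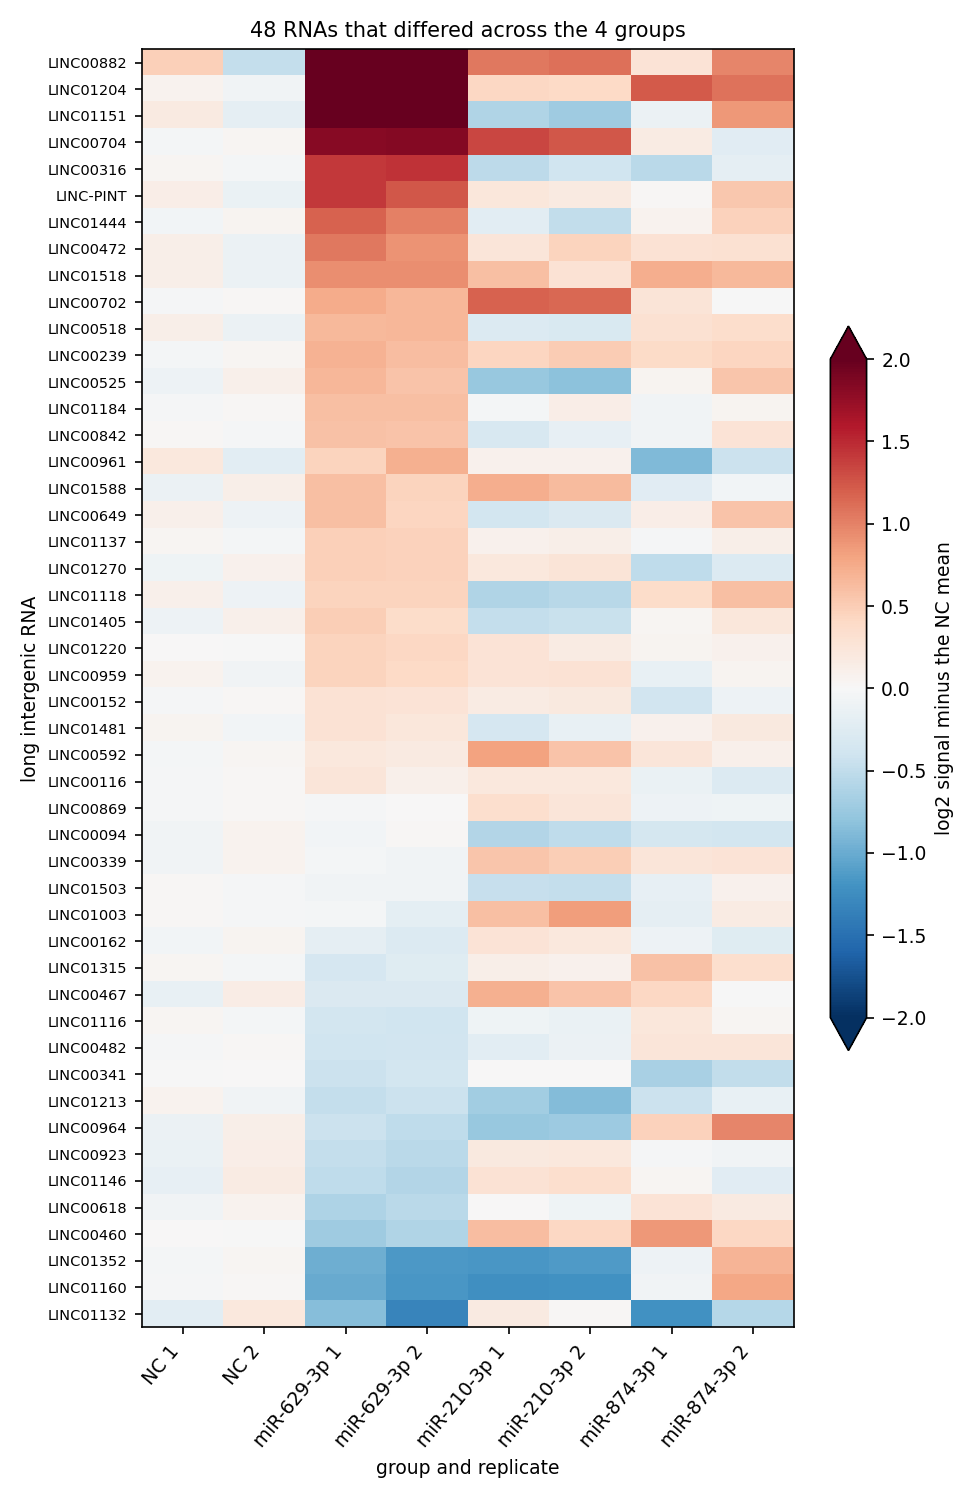
Log2 signal minus the NC mean (colour, from -2 in blue to 2 in red; values beyond are drawn at the end of the scale) of the 48 RNAs that differed across the 4 groups, in rows ordered by the difference between miR-629-3p and NC, on the 8 arrays. LINC00882, LINC01204, LINC01151 and LINC00704 stand at the top and LINC01352, LINC01160 and LINC01132 at the bottom.

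Several RNAs have more than 1 probe, so a difference could be read from different parts of the transcript. Another probe well above background on all 8 arrays was present for 60 of the tested RNAs, 95 probes in all. For 12 of the RNAs called with miR-629-3p there were 27 such probes, of which 25 differed from NC in the same direction and 17 were called among all probes kept. In 6 RNAs not called with miR-629-3p (LINC00211, LINC00963, LINC01128, LINC01186, LINC01291 and LINC01347) and in 6 not called with miR-210-3p (LINC-PINT, LINC00211, LINC00472, LINC00673, LINC01128 and LINC01186), named after their values were seen, another probe was called. LINC00211 had the widest gap. Its highest probe (chr2:38067327-38067386) differed from NC by 0.01 with miR-629-3p and by 0.12 with miR-210-3p. The dimmer one (chr2:38054236-38054295) read 0.52 and 0.54 in miR-629-3p cells, -0.84 and -1.20 in miR-210-3p cells, -1.78 and -1.38 in miR-874-3p cells, and -2.17 and -2.59 in NC. That probe rose by 2.91 with miR-629-3p (adjusted p = 0.0036) and by 1.36 with miR-210-3p (adjusted p = 0.0297), although LINC00211 counts above among the RNAs within 0.2 of NC. In LINC00963, the highest probe read 3.76 and 3.66 with miR-629-3p against 3.84 and 3.80 in NC, while all 5 dimmer probes rose by 0.60 to 1.33 on the log2 scale (adjusted p from 0.0068 to 0.0337). In LINC00673, the highest probe (chr17:70427305-70427364) read 1.19 and 1.19 with miR-210-3p against 1.21 and 1.21 in NC. The other probe of LINC00673 (chr17:70399521-70399580) read 1.85 and 1.78 in miR-210-3p cells, 0.62 and 0.59 in miR-629-3p cells, 0.36 and 0.53 in miR-874-3p cells, and 0.43 and 0.23 in NC, so that it was above all others with miR-210-3p, and above NC by 1.49 (adjusted p = 0.0063). With miR-629-3p, a dimmer probe of LINC01128 rose by 0.85. Of the 4 dimmer probes of LINC01347, 1 rose by 0.33 (adjusted p = 0.0399), and the others differed by -0.54, 0.27 and 0.27 without passing the test.

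Of the 12 members whose RefSeq gene is protein-coding, 3 (25.0%) were called with miR-629-3p, beside 16.8% of all genes tested. These were 2 higher and 1 lower than NC; with miR-210-3p 1 was lower and with miR-874-3p none was called, and the median differences of the 12 were 0.06, 0.05 and -0.12. LINC00493, now SMIM26, which encodes a small mitochondrial protein, read 6.62 and 6.66 with miR-629-3p against 6.33 and 6.40 in NC, a rise of 0.28 (adjusted p = 0.0459). LINC00959, now C10orf143, rose by 0.42 (adjusted p = 0.0406). LINC00116, now MTLN, which encodes the inner mitochondrial membrane protein mitoregulin, read 4.02 and 3.88 in miR-629-3p cells, 3.98 and 3.98 in miR-210-3p cells, 3.64 and 3.51 in miR-874-3p cells, and 3.76 and 3.80 in NC. It was not called against NC, and the F test across the groups called it (adjusted p = 0.0452). LINC01420, now NBDY, which encodes a small protein of the mRNA decapping complex, lay between 4.55 and 4.80 on all 8 arrays. LINC00176, LINC00514, LINC00961, LINC00998, LINC00083 and LINC01183 were not called in any comparison with NC.

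Of 19 LINC names listed because they have been studied in squamous or head and neck carcinoma, 11 were on all 8 arrays and 1 on none. Of the 11, 1 rose (9.09%) and 2 fell (18.2%) with miR-629-3p, beside 9.09% and 8.56% of the genes detected on all 8 arrays, with a median difference of -0.21. None was called with the other mimics. LINC00152 (CYTOR) read 6.67 and 6.65 in miR-629-3p cells, 6.54 and 6.58 in miR-210-3p cells, 6.0 and 6.28 in miR-874-3p cells, and 6.36 and 6.41 in NC. The first slide row lay above the second, and the difference between miR-629-3p and NC, 0.28, did not pass the test (adjusted p = 0.129). LINC00662 rose by 0.41 with miR-629-3p (adjusted p = 0.0422). LINC00941 lay between 3.29 and 3.49 on all arrays, and LINC00857, LINC00346, LINC01234, LINC00958 and LINC00162 were not called against NC. LINC-ROR, a regulator of reprogramming, read between -1.39 and -0.87 and was not called.

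Long noncoding RNAs under other names were also measured. Of 34 well-known ones, 26 were on all 8 arrays. With miR-629-3p 7 of these (26.9%) were higher and 1 (3.85%) lower than NC, beside 9.09% and 8.56% of all genes detected on all 8 arrays, with a median difference of 0.15. Those higher were CCAT1 (1.21), MIR31HG (0.76), MALAT1 (0.57), MIR22HG (0.56), EPB41L4A-AS1 (0.41), OIP5-AS1 (0.39) and SNHG16 (0.30), and MEG3 was lower by 0.46. With miR-210-3p, CRNDE, JPX and SNHG16 were higher by 1.05, 0.47 and 0.57, and with miR-874-3p MIR31HG, the host transcript of miR-31, by 1.06. Of 24 genes of the RNA exosome and its nuclear partners, which degrade many noncoding transcripts, 22 were on all 8 arrays. With miR-629-3p 3 of these (13.6%), EXOSC5, EXOSC7 and EXOSC10, were lower, by 0.64, 0.54 and 0.31, beside the 8.56% of genes. None of the 22 was higher, but over all 24 tested 1 gene was called higher. None of the 24 was called with miR-210-3p or miR-874-3p.

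The protein-coding genes that RefSeq places next to or over each tested RNA were looked up on the same arrays. The nearest gene on each side was taken at any distance. Among the neighbours named below the gap ran from 0.17 kb (MKLN1) to 3660.5 kb (ZNF254), and was 1402 kb for NR2F2 and 1240 kb for CBLB. With miR-629-3p, the 9 RNAs that fell had 16 tested neighbours, of which 4 (25.0%) were lower and 0 higher than NC, with a median difference of -0.22. These were HK2, a hexokinase, beside LINC01293 (-0.78); CLMN beside LINC00341 (-0.99); MTARC1 beside LINC01352 (-0.60); and NR2F2, a nuclear receptor, beside LINC00923 (-0.50). The RNAs that rose had 36 tested neighbours, of which 5 (13.9%) were higher and 4 (11.1%) lower. Higher were MKLN1 beside LINC-PINT (0.61), CBLB beside LINC00882 (0.61), SOCS5 beside LINC01118 (0.87), CEBPB beside LINC01270 (0.41) and DIPK2B beside LINC01204 (1.81), the last well above background on only 2 arrays. Lower were ZNF322 beside LINC00240 (-0.67), ZNF254 beside LINC00662 (-0.35), and both ZNF33B (-0.80) and BMS1 (-0.56) beside LINC01518. Among the 227 neighbours of RNAs not called, 12.3% were higher and 12.3% lower. HK2 is also among these 227, since LINC01293 and LINC01291, which was not called, match the same gene. None of the neighbours of RNAs called with miR-210-3p or miR-874-3p was called in the same comparison.

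Markers of the cell type were in place. All 11 squamous epithelial markers, among them KRT5, TP63 and SFN, were well above background on all 8 arrays, and their summed linear signal was 601 and 607 in miR-629-3p cells, 534 and 537 in miR-210-3p cells, 654 and 721 in miR-874-3p cells and 698 and 740 in NC. With miR-629-3p, KRT14, KRT17 and CDH1 (27.3%) were lower and DSG3 (9.09%) higher, with a median over the 11 of -0.44. Of the genes detected on all 8 arrays 8.56% were lower and 9.09% higher. With miR-210-3p, KRT5, KRT14, KRT17 and SFN (36.4%) were lower, beside 2.41% of those genes, with a median of -0.62. Of 6 fibroblast markers 4 were on no array and 1, PDGFRB, on all 8. Of 6 leukocyte markers 3 were on all 8 arrays and of 5 endothelial markers 2, and their summed signals were 3.25 to 4.61 and 1.34 to 2.77, beside 0.567 to 2.0 for the fibroblast markers. Against NC, 1 fibroblast and 1 endothelial marker were higher in miR-629-3p cells, as was 1 fibroblast marker in miR-210-3p cells. No leukocyte marker was called. Their part in the differences of the long intergenic RNAs was not tested.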

How the data were processed

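Total RNA of 8 samples was hybridised to 1-colour Agilent whole-transcriptome arrays. The authors deposited scanner output of Agilent Feature Extraction 11.5.1.1, whose intensity values (processed signal, background-subtracted and detrended) were not normalized between arrays, and a table of log2 values, whose scale is not stated; after a constant offset for each array all of its probes lay within 0.05 of log2 processed signal minus the 75th percentile. Array medians of that table were -3.68 to -3.36.

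From the intensity, log2 minus each array's 75th percentile was taken, without control spots and outlier-flagged spots (87 to 346 of 60901). Of 58201 gene probes, 42.2% to 49.8% were well above background, and no spot was saturated. Kept were probes with a value everywhere that both arrays of some group had well above background, and the brightest probe of each name was tested (21283 of 43317 names). limma 3.58.1 (lmFit, eBayes) in R 4.3.3 was fitted to the 8 arrays with group as the single factor (residual degrees of freedom 4, prior 1.68). The scripts were tested on simulated data. The number of arrays limits the precision.

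The members and lists were chosen with earlier results of these data known. Named were, for each comparison with NC, up to 8 called members in each direction with the largest change and both arrays beyond both NC arrays; the 10 brightest; the members next to the detection limit; members matched to protein-coding genes; and listed members. MPP6, whose symbol now belongs to another gene, and NORAD, a member, were taken off their lists. LINC names were matched to RefSeq genes of GRCh38.p14, used for names, types and neighbours; probe positions are on hg19.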

Additional observations from a re-analysis of the deposited data

How the results depend on the processing

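Against NC, 34 RNAs were called for miR-629-3p, 10 for miR-210-3p and 1 for miR-874-3p, and 48 across the groups; counts below keep this order. Quantile normalization, median centring, the authors' deposited values, outlier spots kept and every probe counted as a feature left these counts within 1.5 times (29 to 33, 9 to 10, 1, and 44 to 46). Normexp background correction gave 16 for miR-210-3p and 3 for miR-874-3p; for the same mimics, no filter on detection gave 0 and 0 (31 across the groups); detection on all 8 arrays gave 21 and 2; eBayes with trend gave 21 and 3; a fit of only the 2 groups compared gave 6 and 0. The next brightest probe, available for 60 RNAs, gave 12, 4, 0 and 16. The methods' t-test or ANOVA gave 0, 0, 0 and 29, and an unadjusted p under 0.05 with a 2-fold change 10 with miR-629-3p and 17 across the groups. With the replicate block the counts were 17, 2, 1 and 28. Deviations of samples with the same number correlated at -0.11 to 0.03 between groups. The values thus showed no effect shared by samples of the same number, which does not tell how the samples were handled. Leaving out single arrays gave 3 to 48, 0 to 22, 0 to 3 and 5 to 56; a lone array was then assumed to vary like the other groups. With the next brightest probe, LINC00673 was 1.49 above NC with miR-210-3p, and LINC00094 differed by -0.044 between miR-629-3p and miR-210-3p and by -0.14 between miR-629-3p and miR-874-3p, against the direction of the main probe; the cause was not tested. For the named RNAs, 4172 values kept their call or their lack of one. Values that changed sign without a call before or after are counted among them. With the direction kept, 483 values lost the call and 67 gained it, and 3 changed sign with a call before or after. The slide as a block was not run, since there was 1 slide.

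The 2 arrays of a group and the signal of dim probes limit what can be seen. The 2 replicates differed by 2-fold or more in 5 RNAs of NC, 3 of miR-629-3p, 1 of miR-210-3p and 0 of miR-874-3p. Among the genes detected on all 8 arrays these counts were 211, 83, 79 and 281. The median gap between replicates of the 219 RNAs was largest for miR-874-3p, at 0.17 (log2). It was 0.14 for NC, 0.10 for miR-629-3p and 0.09 for miR-210-3p.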

Other observations

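Some LINC names outside the 223 had a probe that passed the detection flag on both arrays of 1 group and on none of the other 6 arrays: 15 names for miR-629-3p, 2 names for miR-210-3p, and 0 names for miR-874-3p and for NC. For 10 of the 15 and both of the 2, no probe of the name passed on another array. The arrays also differed in the share of all probes above background, from 42.2% (NC replicate 2) to 49.8% (miR-629-3p replicate 1). The same count was not made over all gene names, so these counts are no result about LINC names. LINC00520 was found in this way by 2 of its probes, with -1.78 and -1.24 and with -1.80 and -2.17 in miR-629-3p cells (log2 over the 75th percentile), at least 2.49-fold (limma adjusted p = 0.0169) and at least 1.80-fold above NC, where it was not well above background; the second of these probes was not tested. LINC00911 was at least 1.91-fold (adjusted p = 0.0111) and LINC00324 at least 1.46-fold (adjusted p = 0.0023) above NC with miR-629-3p, and LINC00922 at least 1.38-fold (adjusted p = 0.0109) above NC with miR-210-3p. The bound is the group mean over the lowest signal among probes well above background on each NC array, or the probe's own signal where that was higher. These names were looked at after their values were seen, and a name enters here because of its group, so the p-values are a description.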
